A study of Saccharomyces cerevisiae with 45 samples.

Results

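HSP42, BTN2 and CUR1 encode the protein sequestrases of budding yeast (Saccharomyces cerevisiae), which gather misfolded proteins into deposits. The 3 genes were found by symbol in the probe annotation and are 3 of the 5449 genes measured on the arrays, each with 1 probe set. Their messenger RNA was followed in cells moved from 25 °C to 37, 42 or 46 °C. Within 3 min at 37 °C all 3 transcripts had risen, HSP42 13.6-fold, BTN2 6.58-fold and CUR1 3.65-fold. By 80 min BTN2 and CUR1 lay below the 25 °C control of batch A863. The 80 min arrays are of another batch, and against the 25 °C control of batch A927 neither gene was called lower. At 42 °C the 3 transcripts were higher than in their control at 3, 5, 10 and 40 min, with no called fall between times. The 25 °C controls of the 2 array batches differed in these genes, by -2.66 for HSP42 (A927 minus A863, log2). The sizes of the heat changes and some of the calls therefore depend on the control used.

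Heat unfolds part of the proteins of a cell, and yeast collects the damaged molecules in a small number of inclusions, from which chaperones can later recover or degrade them. Hsp42 is a small heat shock protein that binds unfolding proteins directly and drives their collection in the cytosol. Btn2 is needed for deposits in the nucleus and works together with Hsp42 in the cytosol, and its paralogue Cur1 binds the J-domain co-chaperone Sis1. Extra Btn2 or Cur1 cures yeast cells of the prion [URE3]. The disaggregase Hsp104 with Hsp70 and its J-domain partners later dissolves the deposits. Heat shock genes in yeast are driven by the factor Hsf1, by the general stress factors Msn2 and Msn4, or by both.

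All cells were of 1 laboratory strain, labelled BY4147 with the genotype MATa, his3D1, leu2D0, met15D0 and ura3D0. Every culture grew in rich medium (YPD) and was heated in a water bath. Cells at 25 °C and cells held at 37 °C for 1, 3, 5, 7, 10, 15 and 40 min formed batch A863, with 3 arrays in each group. The 3 arrays at 37 °C for 80 min were batch A705, which has no 25 °C arrays. A second 25 °C control and cells held at 42 °C for 3, 5, 10 and 40 min formed batch A927, with 2 arrays in each group. Cells held at 46 °C for 10 and 30 min formed batch P230, also with 2 arrays in each group and no control of their own. The labels do not say whether replicates came from separate cultures, and p-values here reflect array-to-array spread that may be technical.

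The values are log2 intensities on which a difference of 1 is a doubling, and the number of arrays limits their precision. The 41 arrays used fell into 16 groups whose replicates correlated at r of 0.992 to 0.999 over all probe sets, control probe sets among them. The 4 arrays labelled 42 °C 1 min and 80 min (batch A961) were left out, because their replicates correlated at only 0.612 and 0.620. The array distributions fell into 3 sets (A863 with A705, A927 with A961, and P230), so levels set across these sets rest on separate normalisations. Probe sets with no target in this strain gave a floor of unspecific signal (their 95th percentile) of 5.32, 5.51 and 4.56 in the 3 sets. The deleted markers URA3, LEU2 and MET17 (MET15 in the label) ranged from 3.88 to 5.93 over the arrays used, against 10.27 to 12.38 for HIS3. A gene was called changed at an adjusted p under 0.05 with a log2 difference of at least 1, by limma over all 5449 genes.

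HSP42 (YDR171W) lies on chromosome IV from 806621 to 807748, BTN2 (YGR142W) on chromosome VII from 772454 to 773686, and CUR1 (YPR158W) on chromosome XVI from 843262 to 844020, all in the R64 reference annotation. The annotated genes span 1128, 1233 and 759 bp. The arrays read the part of a transcript near its 3' end, and as whole cultures were read, more cells with a transcript and more of it per cell cannot be told apart. The brightness of different probe sets is not a measure of abundance, so levels are compared below between conditions of 1 gene.

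At 25 °C all 3 genes were lower in control A927, as the control of batch A927 is called below, than in control A863. HSP42 had a log2 intensity of 7.69 and 7.44 in control A927, against 10.07, 10.13 and 10.46 in control A863. BTN2 had 9.83 and 9.85 in control A927, against 11.17, 11.34 and 11.51 in control A863. CUR1 had 8.38 on both arrays of control A927, against 10.14, 10.24 and 10.27 in control A863. The controls did not overlap for any of the 3 genes, but non-overlap was common between these separately normalised sets: 36.4% of all genes lay lower on every A927 array than on every A863 array, and 44.6% higher. The difference was -2.66 ± 0.10 for HSP42, -1.50 ± 0.11 for BTN2 and -1.84 ± 0.08 for CUR1 (log2 ± SE, n = 2 and 3, limma adjusted p = 1.48e-20, 8.22e-13 and 8.53e-19). Each SE rests on a spread of the gene shared over all groups in the fit. The SD of HSP42 was 0.18 in control A927 and 0.21 in control A863, against 0.01 at 37 °C for 10 min. Its SE and p-value may therefore be too small here. HSP42 stood 15th, CUR1 38th and BTN2 71st from the lowest of all 5449 differences. Of all genes, 2.90% were called lower and 0.606% higher in control A927. With quantile normalisation of all arrays to each other the differences were -2.30, -1.45 and -1.57. The labels give both groups the same temperature, strain and medium, and batch and any difference in handling cannot be told apart. The log2 difference between the ACT1 probe sets at the 3' and 5' end, a measure of how complete the labelled RNA is, was 0.75 ± 0.09 in control A927, against 0.52 ± 0.01 in control A863 (SD, n = 2 and 3), and its part in the difference was not tested.

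At 37 °C HSP42 was the only member called after 1 min, the first time measured. Its log2 intensity was 11.44, 11.28 and 11.29 after 1 min, against 10.07, 10.13 and 10.46 in control A863, a change of 1.11 ± 0.09 (2.17-fold, n = 3 and 3, adjusted p = 5.59e-11). This was the second highest change of all genes at 1 min, after the unnamed open reading frame YER053C-A at 1.19, which was named after its value was seen. Only 0.0367% of all genes were called higher at that time. With the 4 arrays of batch A961 in the fit, which widen the shared spread, HSP42 kept its value at 1 min but had an adjusted p of 0.268.

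BTN2 had 12.06, 11.83 and 11.85 after 1 min at 37 °C, against 11.17, 11.34 and 11.51 in control A863. The change of 0.57 ± 0.10 passed the p threshold (adjusted p = 0.000111) and was under the minimum size. CUR1 had 10.29, 10.20 and 10.20 after 1 min, against 10.14, 10.24 and 10.27 in the control, and the groups overlapped. Its change of 0.01 ± 0.07 had a 95% interval from -0.13 to 0.15 (adjusted p = 0.925). After 1 min HSP42 had reached 24.7% of its largest log2 change at 37 °C and BTN2 18.7%.

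Between 1 and 3 min all 3 transcripts rose, by 2.65 ± 0.09 for HSP42, 2.14 ± 0.10 for BTN2 and 1.85 ± 0.07 for CUR1 (n = 3 and 3, limma adjusted p = 1.49e-21, 1.23e-17 and 4.56e-20). In that step 1.63% of all genes were called higher. HSP42 had 14.02, 14.03 and 13.92 at 3 min, BTN2 had 14.06, 14.06 and 14.05, and CUR1 had 12.07, 12.15 and 12.03. All 9 values lay far above the control of the same gene. Against control A863 the changes at 3 min were 3.77 ± 0.09, 2.72 ± 0.10 and 1.87 ± 0.07, in the order HSP42, BTN2, CUR1, where 1.93% of all genes were called higher. HSP42 ranked 3rd of all genes at that time, BTN2 14th and CUR1 37th.

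From 3 to 15 min the transcripts stayed high. None of the 3 genes was called in the steps from 3 to 5, 5 to 7, 7 to 10 or 10 to 15 min, in which 3.03%, 0.661%, 3.89% and 2.94% of all genes were called in either direction. HSP42 reached 14.74 ± 0.01 at 10 min, a change of 4.52 ± 0.09 (22.9-fold). BTN2 reached 14.42 ± 0.01 at 10 min, a change of 3.08 ± 0.10 (8.46-fold). CUR1 reached its highest 37 °C level earlier, 12.81 ± 0.06 at 7 min, a change of 2.59 ± 0.07 (6.02-fold; levels ± SD, changes ± SE, n = 3). The CUR1 values at 15 min, 12.45, 12.52 and 12.58, lay below those at 7 min, 12.77, 12.77 and 12.87, on every array. All 3 genes were called higher than control A863 at 3, 5, 7, 10 and 15 min, against 1.93%, 5.60%, 7.87%, 12.0% and 15.3% of all genes.

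**Figure D1:**
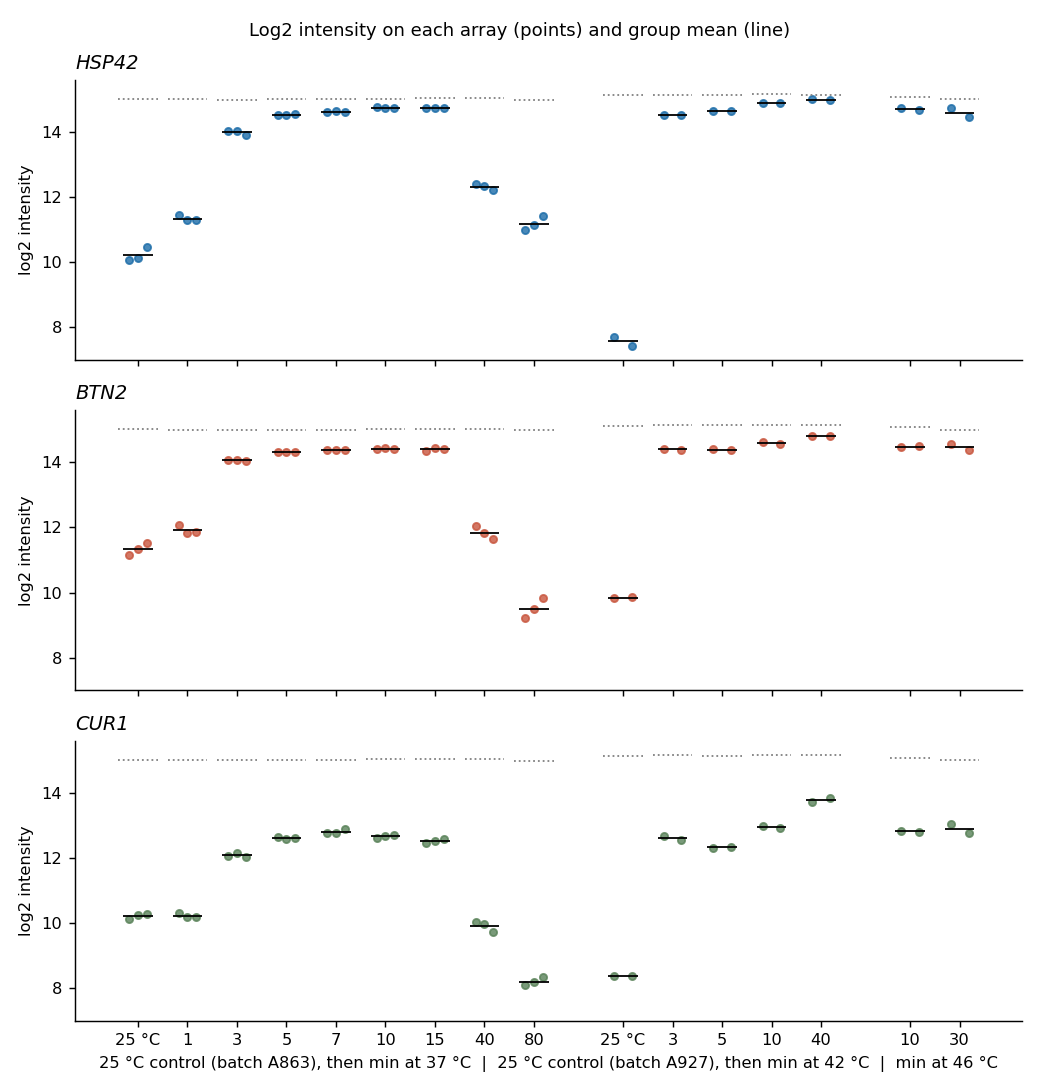
Log2 intensity of HSP42, BTN2 and CUR1 on each of the 41 arrays (points), with group means (black lines) and the mean of the brightest probe set of the same arrays (grey dots); the horizontal axis gives the 25 °C controls and the min at each temperature. The 25 °C levels of batch A927 lie below those of batch A863 in every panel, and the 37 °C levels fall again by 40 min.

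The transcripts then fell while the cells stayed at 37 °C. Between 15 and 40 min HSP42 fell by 2.41 ± 0.09, BTN2 by 2.55 ± 0.10 and CUR1 by 2.60 ± 0.07 (n = 3 and 3, adjusted p = 1.02e-21, 9.75e-21 and 6.97e-25), a step in which 6.96% of all genes were called lower. At 40 min HSP42 had 12.40, 12.34 and 12.22, still above every control A863 array, with a change of 2.10 ± 0.09 (4.28-fold, adjusted p = 7.36e-20, against 7.08% of all genes called higher). BTN2 had 12.06, 11.84 and 11.64, also above the control arrays, by 0.51 ± 0.10, which is under the minimum size. CUR1 had 10.05, 9.98 and 9.74, below every control array, with a change of -0.29 ± 0.07 that was also under the minimum size (adjusted p = 0.000329). HSP42 alone was thus called at 40 min against control A863. Against control A927 the BTN2 and CUR1 values at 40 min were 2.00 and 1.54, both called, with the sign of CUR1 turned.

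At 80 min HSP42 and the paralogue pair lay on opposite sides of control A863. BTN2 had 9.21, 9.48 and 9.83 at 80 min, against 11.17, 11.34 and 11.51 in the control, a change of -1.83 ± 0.10 (3.56-fold lower, adjusted p = 1.31e-16). CUR1 had 8.09, 8.18 and 8.33 at 80 min, against 10.14, 10.24 and 10.27 in the control, a change of -2.01 ± 0.07 (4.04-fold lower, adjusted p = 1.18e-21). These falls ranked 29th and 23rd from the lowest of all genes, and 2.31% of all genes were called lower. The SD of BTN2 was 0.31 at 80 min and 0.17 in control A863, against 0.01 at 37 °C for 10 min. As the fit shares the spread of a gene over all groups, the BTN2 SE and p-value may be too small here. HSP42 had 10.99, 11.13 and 11.41 at 80 min, above every control array, and its change of 0.96 ± 0.09 was just under the minimum size (adjusted p = 2.28e-11, against 5.65% of all genes called higher). From 40 to 80 min HSP42 fell by 1.14 ± 0.09, BTN2 by 2.34 ± 0.10 and CUR1 by 1.72 ± 0.07, where 1.32% of all genes were called lower.

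The 80 min arrays are a batch of their own in the same normalisation set, so time and batch cannot be told apart there. Set against control A927 instead, the 80 min values gave 3.61 for HSP42, -0.33 for BTN2 and -0.18 for CUR1, so that HSP42 was called higher and the calls for BTN2 and CUR1 ended. The ACT1 3' minus 5' value was 0.92 ± 0.08 at 80 min, against 0.52 ± 0.01 in control A863 (log2 ± SD, n = 3). Its part in the 80 min levels was not tested.

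At 42 °C all 3 genes were called higher than control A927 at every time measured, where 5.21%, 8.48%, 13.1% and 23.3% of all genes were called higher at 3, 5, 10 and 40 min. HSP42 had 7.69 and 7.44 in the control, then 14.51 and 14.52 at 3 min, 14.63 and 14.63 at 5 min, 14.89 and 14.88 at 10 min, and 14.99 on both arrays at 40 min. Its changes were 6.95 ± 0.10, 7.06 ± 0.10, 7.32 ± 0.10 and 7.42 ± 0.10 at 3, 5, 10 and 40 min, or 124-fold to 172-fold (n = 2 and 2, adjusted p of 1.1e-30 at 3 min). At 3 min this was the highest change of all 5449 genes, above HSP26 at 6.30 and TSL1 at 5.76.

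BTN2 had 9.83 and 9.85 in control A927, then 14.41 and 14.38 at 3 min, 14.40 and 14.36 at 5 min, 14.61 and 14.57 at 10 min, and 14.82 on both arrays at 40 min. Its changes ran from 4.54 ± 0.12 at 5 min to 4.97 ± 0.12 at 40 min, 23.2-fold to 31.4-fold. CUR1 had 8.38 on both control arrays, then 12.66 and 12.54 at 3 min, 12.31 and 12.35 at 5 min, 12.99 and 12.93 at 10 min, and 13.72 and 13.83 at 40 min. Its changes ran from 3.95 ± 0.08 at 5 min to 5.40 ± 0.08 at 40 min, 15.5-fold to 42.1-fold. The arrays of neighbouring times did not overlap for CUR1, which was lower at 5 than at 3 min and then higher at each later time. With 2 arrays in each group many genes can separate in this way, and their share was not counted. The step from 3 to 5 min was -0.27 ± 0.08 and not called.

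No member was called in a step between times at 42 °C, where 1.49%, 4.46% and 23.6% of all genes were called in either direction from 3 to 5, 5 to 10 and 10 to 40 min. CUR1 came nearest, with 0.63 ± 0.08 from 5 to 10 min and 0.82 ± 0.08 from 10 to 40 min (n = 2 and 2, adjusted p = 2.37e-07 and 2.85e-10). With quantile normalisation of all arrays the step from 10 to 40 min was 1.00, at the minimum size. BTN2 changed by 0.23 ± 0.12 and HSP42 by 0.11 ± 0.10 in that step, with adjusted p of 0.0834 and 0.342. At 3 min HSP42 had reached 93.6% of its largest log2 change at 42 °C, BTN2 91.5% and CUR1 78.2%. At 40 min the ACT1 3' minus 5' value was 1.33 ± 0.07, against 0.75 ± 0.09 in control A927 (log2 ± SD, n = 2), and its part in the CUR1 level at that time was not tested.

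**Figure D2:**
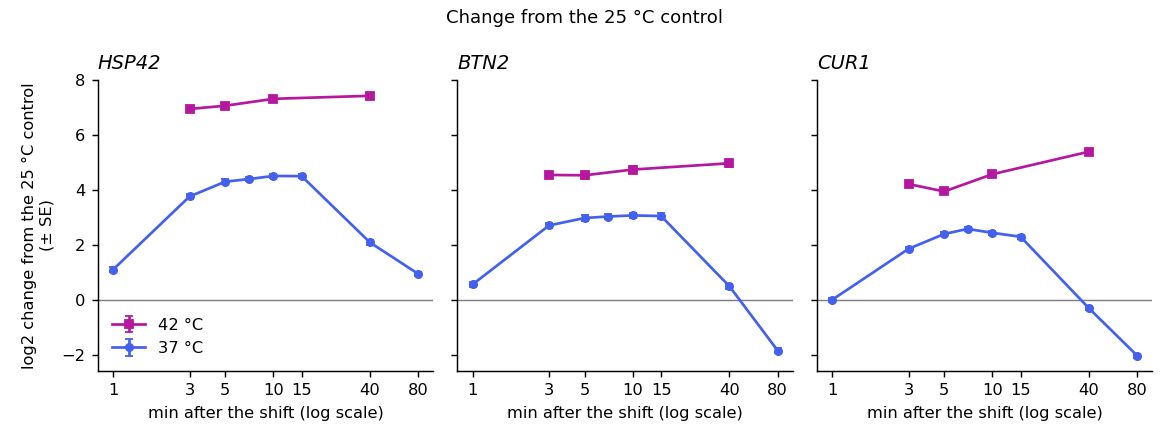
Log2 change of each gene from a 25 °C control (vertical axis, ± SE, bars often smaller than the points) against time after the shift on a log axis, at 42 °C (squares) and 37 °C (circles). The 42 °C points are set against control A927 and the 37 °C points against control A863. The 80 min arrays are of another batch than control A863. At 42 °C the curves stay high to 40 min, whereas at 37 °C they fall after 15 min, and BTN2 and CUR1 end below 0 at 80 min.

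The change at 42 °C exceeded the change at 37 °C for every member and time. For HSP42 the difference between the changes was 3.18 ± 0.13 at 3 min, 2.76 ± 0.13 at 5 min, 2.80 ± 0.13 at 10 min and 5.33 ± 0.13 at 40 min. For BTN2 it was 1.83 ± 0.16, 1.55 ± 0.16, 1.67 ± 0.16 and 4.47 ± 0.16 at the same times, and for CUR1 2.35 ± 0.11, 1.55 ± 0.11, 2.13 ± 0.11 and 5.69 ± 0.11. All 12 differences were called (n = 2, 2, 3 and 3, limma adjusted p of 2.71e-09 or lower), where 2.40%, 2.92%, 8.96% and 19.7% of all genes were called higher. The difference between the controls enters each of these values.

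The heated levels themselves were close together up to 10 min. At 10 min HSP42 had 14.89 and 14.88 at 42 °C, against 14.75, 14.73 and 14.73 at 37 °C. BTN2 had 14.61 and 14.57 at 42 °C, against 14.42, 14.43 and 14.42 at 37 °C. CUR1 had 12.99 and 12.93 at 42 °C, against 12.61, 12.68 and 12.71 at 37 °C. The 42 °C arrays were above the 37 °C arrays in each case, by amounts far smaller than the difference between the changes. Taken directly, the level at 42 °C minus the level at 37 °C was 0.52 ± 0.10, 0.10 ± 0.10 and 0.15 ± 0.10 for HSP42 at 3, 5 and 10 min, and 0.34 ± 0.11, 0.05 ± 0.11 and 0.17 ± 0.11 for BTN2. For CUR1 it was 0.52 ± 0.08, -0.29 ± 0.08 and 0.29 ± 0.08, so that at 5 min the sign was turned. None of these 9 level differences reached the minimum size, so the 9 calls up to 10 min are lost when a common control is used.

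At 40 min the temperatures differed on either measure. HSP42 had 14.99 on both arrays at 42 °C, against 12.40, 12.34 and 12.22 at 37 °C, a level difference of 2.67 ± 0.10. BTN2 had 14.82 on both arrays at 42 °C, against 12.06, 11.84 and 11.64 at 37 °C, a level difference of 2.97 ± 0.11. CUR1 had 13.72 and 13.83 at 42 °C, against 10.05, 9.98 and 9.74 at 37 °C, a level difference of 3.85 ± 0.08. All 3 were called (limma adjusted p = 5.4e-22, 1.41e-21 and 1.96e-28). The share of all genes called by level is not given here. By the difference between the changes from own controls, 19.7% of all genes were called higher at 40 min. These level differences cross normalisation sets and batches.

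**Figure D3:**
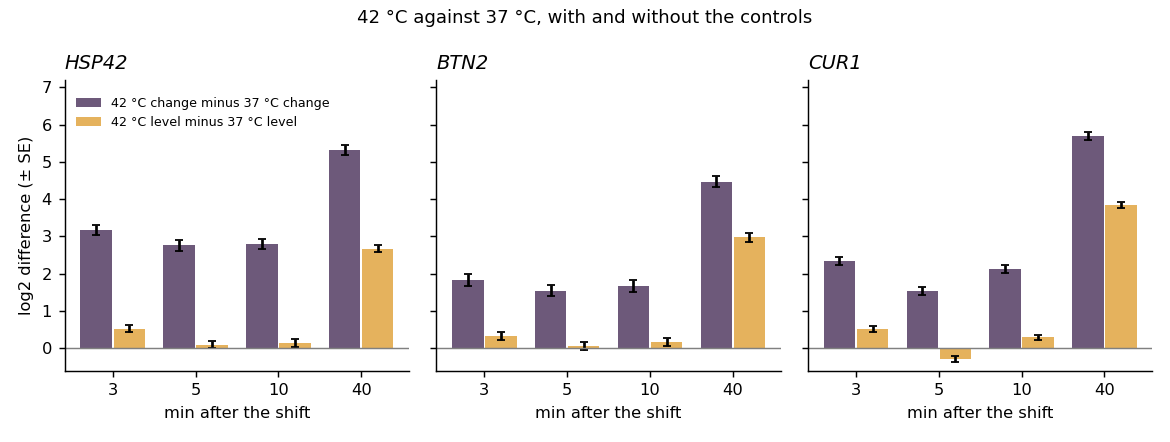
Log2 difference between 42 °C and 37 °C at 3, 5, 10 and 40 min for each gene, as the difference between the changes from the own controls (dark bars) and as the difference between the heated levels (light bars), both ± SE. The bars of a pair differ by the difference between the controls, and the light bars pass 1 only at 40 min.

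At 46 °C all 3 genes were high at both times. HSP42 had 14.73 and 14.66 at 10 min and 14.72 and 14.45 at 30 min. BTN2 had 14.46 and 14.50 at 10 min and 14.57 and 14.38 at 30 min, and CUR1 had 12.82 and 12.81 at 10 min and 13.04 and 12.77 at 30 min. Every one of these values was above every 25 °C array of the same gene, a comparison across normalisation sets. Against the mean of both controls the changes at 10 min were 5.80 ± 0.09 for HSP42, 3.89 ± 0.10 for BTN2 and 3.52 ± 0.07 for CUR1, and those at 30 min 5.69 ± 0.09, 3.89 ± 0.10 and 3.61 ± 0.07 (n = 2 against 5, limma adjusted p of 5.2e-25 or lower). Of all genes, 7.47% were called higher at 10 min and 8.02% at 30 min.

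The arrays at 46 °C were normalised apart, and the median of all genes was -0.39 there at 10 min and -0.38 at 30 min. After each array was centred on its median, the changes at 10 min were 6.15 for HSP42, 4.24 for BTN2 and 3.87 for CUR1. The choice of control moved them more. Against control A927 alone HSP42 changed by 7.13 at 10 min, and against control A863 alone by 4.47. BTN2 changed by 4.64 and 3.14 and CUR1 by 4.44 and 2.60 with the same controls in the same order. Between 10 and 30 min the differences were -0.11 ± 0.10 for HSP42, 0.00 ± 0.12 for BTN2 and 0.09 ± 0.08 for CUR1, none called (adjusted p = 0.415, 0.995 and 0.417). In that step 0.239% of all genes were called in either direction.

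Ordered by level over the 16 groups, with the normalisation sets put side by side, each gene had its highest mean at 42 °C for 40 min. The next mean was that at 42 °C for 10 min, whose arrays overlapped those at 46 °C for 30 min for BTN2 and CUR1. With each array centred on its median, HSP42 was highest at 46 °C for 10 min, and both 46 °C groups stood above 42 °C for 10 min for BTN2 and CUR1, so the order of the 42 and 46 °C groups depends on the scaling. HSP42 was lowest in control A927, with control A863 the next lowest, whereas BTN2 and CUR1 were lowest at 37 °C for 80 min with control A927 the next lowest. Among the raised groups many neighbours in the order overlapped. For HSP42 the arrays at 37 °C for 10 and 15 min overlapped, as did those at 37 °C for 15 min and at 46 °C for 10 min. At the low end HSP42 arrays at 37 °C for 1 and 80 min overlapped, and CUR1 arrays at 37 °C for 1 min overlapped control A863.

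The raised levels of HSP42 and BTN2 were near the brightest signal of the arrays. In the 11 groups at 37 °C for 3 to 15 min, at 42 °C and at 46 °C, HSP42 lay 0.16 to 1.00 below the brightest probe set of the same array and BTN2 0.33 to 0.94 below it, as group means on the log2 scale. CUR1 lay 1.37 to 2.91 below it in the same groups. The group means spanned 1.00 for HSP42, 0.76 for BTN2 and 1.69 for CUR1 over those groups. HSP42 came closest at 42 °C for 40 min. Whether the range of the arrays limits the differences among the heated groups was not tested.

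BTN2 and CUR1 are paralogues, and the gap between their log2 intensities on the same array was followed over the groups. Only its differences between groups can be read, since the probe sets differ. The gap was 1.12 ± 0.11 in control A863, then 1.68 ± 0.07 at 1 min and 1.97 ± 0.05 at 3 min at 37 °C, and it was 1.92 ± 0.08 at 40 min and 1.31 ± 0.19 at 80 min (± SD, n = 3). The arrays at 1 and 3 min were all above the control arrays. In batch A927 the gap was 1.46 ± 0.01 in the control, then 1.79 ± 0.07, 2.05 ± 0.05, 1.63 ± 0.01 and 1.04 ± 0.08 at 3, 5, 10 and 40 min at 42 °C (± SD, n = 2). The arrays at 42 °C for 40 min were below every control array of that batch. At that time BTN2 lay 0.33 and CUR1 1.37 below the brightest probe set, and the part of this in the gap was not tested. At 46 °C the gap was 1.66 ± 0.04 at 10 min and 1.58 ± 0.06 at 30 min. The gap is given as a description with no test.

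**Figure D4:**
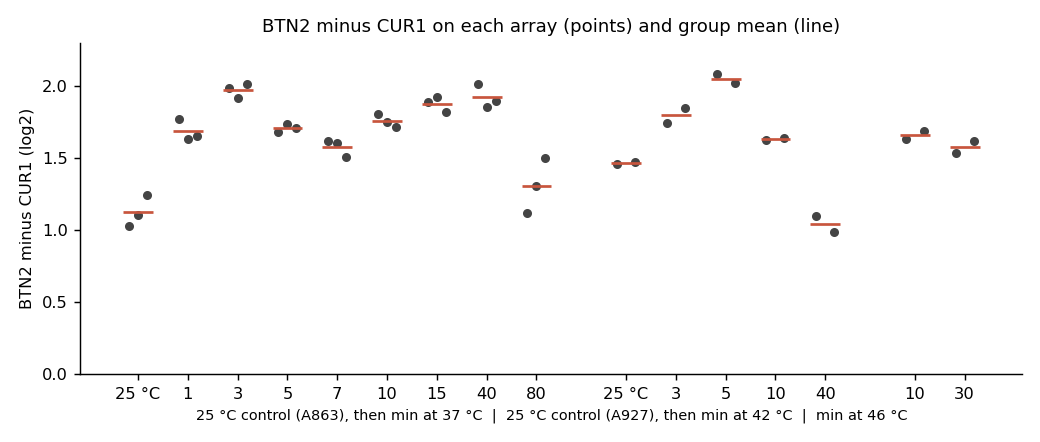
BTN2 minus CUR1 in log2 intensity within each array (points), with group means (lines), over the 25 °C controls and the min at 37, 42 and 46 °C. The gap is widest at 37 °C for 3 min (1.97) and at 42 °C for 5 min (2.05), and lowest at 42 °C for 40 min (1.04).

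Chaperone genes known to depend on Hsf1 rose in part with the sequestrases. Of 15 such genes other than the members, 0 were called at 37 °C for 1 min, 6 were called higher at 3 min, 11 at 10 min and 7 at 40 min, against 0.0367%, 1.93%, 12.0% and 7.08% of all genes. At 42 °C 10 were called higher at 3 min and 12 at 40 min, against 5.21% and 23.3% of all genes, and at 46 °C 10 at 10 min, against 7.47%. The list's median change was 1.57 at 37 °C for 10 min, against 0.02 over all genes, and 1.92 at 42 °C for 10 min, against -0.07 over all genes. At 37 °C for 3 min HSP78, the mitochondrial disaggregase, rose by 3.45, HSP104, the cytosolic disaggregase, by 2.01, and HSP82, an Hsp90 chaperone, by 1.68. HSP42 at 3.77 was above every gene of this list at that time.

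At 37 °C for 80 min, when BTN2 and CUR1 were called lower, 5 of these 15 genes were still called higher and 1 lower, against 5.65% and 2.31% of all genes. HSP78 was higher by 2.14, HSP82 by 1.84, SSA1, an Hsp70, by 1.70, AHA1, an Hsp90 activator, by 1.53 and HSP104 by 1.47. FES1, an Hsp70 nucleotide exchange factor, was lower by -1.05. In the controls 3 of the 15 were called lower in control A927 than in control A863, against 2.90% of all genes. They were HSP78 at -1.56, HSP82 at -1.20 and HSP104 at -1.06. All 3 were smaller in size than the difference of HSP42, but HSP78 exceeded BTN2 at -1.50.

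**Figure D5:**
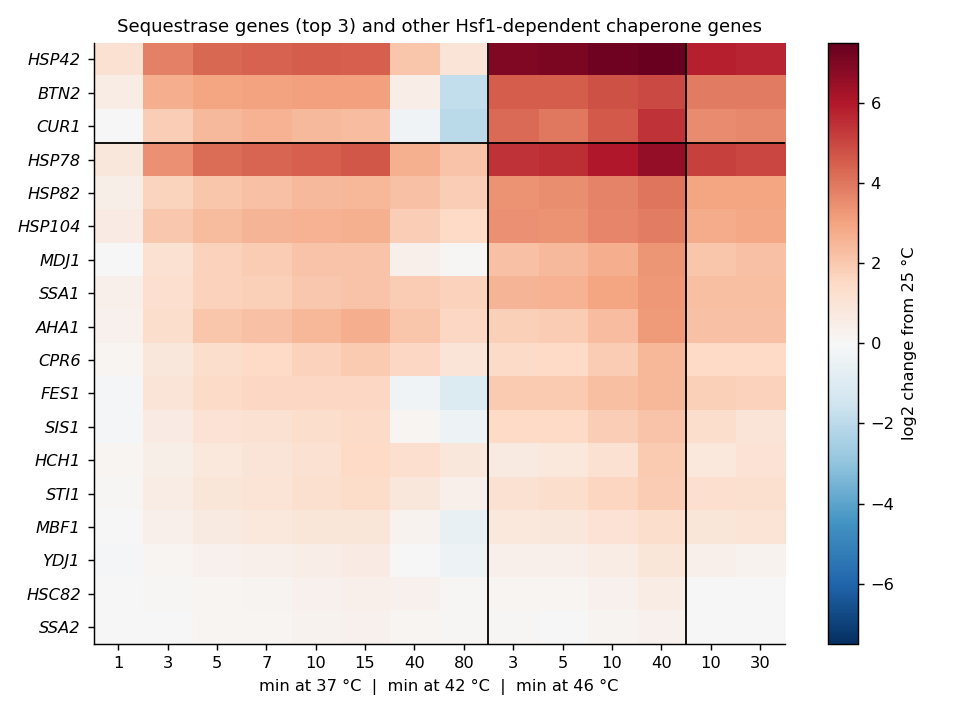
Log2 change from 25 °C (colour, red higher) of HSP42, BTN2 and CUR1 in the top 3 lines and of 15 Hsf1-dependent chaperone genes below, in order of their change at 42 °C for 40 min, against the min at 37, 42 and 46 °C. At 80 min at 37 °C BTN2 and CUR1 are blue while HSP78, HSP82 and HSP104 are red.

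Genes that act on deposited proteins were taken as a second list of 12 disaggregation and refolding partners, several of them also on the Hsf1 list. Of these, 6 were called higher at 37 °C for 3 min, 9 at 10 min, 9 at 42 °C for 10 min and 9 at 46 °C for 10 min, against 1.93%, 12.0%, 13.1% and 7.47% of all genes. The median change was 2.32 at 37 °C for 10 min, against 0.02 over all genes. The small heat shock protein gene HSP26 rose by 3.25 at 37 °C for 3 min and was higher by 6.18 at 80 min, when HSP42, the other small heat shock protein gene described here, was higher by 0.96. The Hsp70 gene SSA4 rose by 3.78 at 3 min and was higher by 2.15 at 80 min. The J-domain gene APJ1 rose by 2.16 at 3 min and was lower by -1.14 at 80 min, both against control A863. Against control A927 its 80 min difference was 0.00. At 80 min 5 of the 12 were called higher and 2 lower, against 5.65% and 2.31% of all genes.

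Of 13 ubiquitin and proteasome factors that handle misfolded proteins, 2 were called higher at 37 °C for 3 min, 4 at 10 min, 3 at 42 °C for 10 min and 6 at 42 °C for 40 min, against 1.93%, 12.0%, 13.1% and 23.3% of all genes. At 42 °C for 40 min 1 was called lower, against 22.4% of all genes. The median change was 0.09 at 37 °C for 10 min, against 0.02 over all genes. Those called at 3 min were UBI4, the polyubiquitin gene, at 1.41 and RPN4, the activator of proteasome genes, at 1.24. At 80 min RPN4 was lower by -1.32 and UBI4 higher by 2.36. Of 12 general stress genes of Msn2 and Msn4, 11 were called higher at 37 °C for 3 min, 12 at 10 min and 8 at 80 min, against 1.93%, 12.0% and 5.65% of all genes. All 12 were called higher at 42 °C for 3, 5, 10 and 40 min, against 5.21%, 8.48%, 13.1% and 23.3% of all genes. At 46 °C all 12 were called higher at 10 and 30 min, against 7.47% and 8.02% of all genes. Their median change was 4.68 at 37 °C for 10 min, against 0.02 over all genes. HSP12, a membrane-protecting stress protein gene, was higher by 6.48 at 80 min.

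The median change of the regulators was 0.53 at 37 °C for 10 min. That of the general stress genes was 4.68 and that of the ubiquitin and proteasome factors 0.09. HSF1 was called higher at 42 °C for 40 min (1.36 ± 0.12), against 23.3% of all genes, and in no other comparison with 25 °C. MSN2 was called in the same comparison only (1.08 ± 0.08). MSN4 was called at 37 °C for 7, 10 and 15 min (1.07, 1.34 and 1.32) and at 46 °C for 30 min (1.05). Of all genes, 7.87%, 12.0%, 15.3% and 8.02% were called higher in those comparisons. The 14 comparisons with 25 °C share controls within each batch, so the counts above are not independent of each other.

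Genes with the most similar course were ranked by Pearson's r over 11 group changes (37 °C up to 40 min and 42 °C), among genes with a standard name that reached a change of 1 in at least 1 group. The 11 points share 2 controls and 2 batches, so r is a description. Nearest to HSP42 were BTN2 (0.98), CUR1 (0.98), the J-domain gene JID1 (0.98), PIC2, a mitochondrial carrier (0.97), and HSP104 (0.97). Nearest to BTN2 were the autophagy gene ATG41 (0.99), CUR1 (0.99), HSP42 (0.98), APJ1 (0.98) and the glycogen synthase gene GSY1 (0.98). Nearest to CUR1 were TPO4, a polyamine transporter (0.99), BTN2 (0.99), ATG41 (0.99), CTH1, a zinc finger RNA-binding protein (0.99), and APJ1 (0.99). HSP42 stood 9th for CUR1, at 0.98, among 2721 genes ranked. Each member thus had the other 2 among its 9 nearest genes.

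The nearest named genes on the chromosome differed from the members in the direction or size of their changes. They were chosen by position after the member values were known. SUP35, a translation termination factor gene 575 bp from HSP42, changed by -1.44 ± 0.06 at 37 °C for 10 min and by -2.01 ± 0.08 at 42 °C for 40 min, when HSP42 was higher by 4.52 and 7.42. VPS62, 481 bp from BTN2, changed by -1.39 ± 0.08 at 37 °C for 10 min. Its counterpart TDA6, 592 bp from CUR1, changed by 0.01 ± 0.07 at that time and rose by 1.69 ± 0.09 at 42 °C for 40 min and by 1.52 ± 0.07 at 46 °C for 10 min. On the other sides, SEC7, 4398 bp from HSP42, was called lower at 42 °C for 40 min (-1.28 ± 0.06), and SKN1, 1506 bp from BTN2, and KRE6, 13562 bp from CUR1, were not called in any comparison with 25 °C.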

How the data were processed

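Total RNA (150 ng) was amplified from its 3' end, labelled with biotin and hybridised to yeast expression arrays, per the labels' protocols. The deposited log2 intensities were summarised by the authors with RMA (affy), per the submitters' processing notes, which give no versions. RMA sets arrays to a common distribution, so overall shifts in messenger RNA are removed. Of 5900 probe sets, 5498 had 1 gene symbol, 0 had several and 265 others had none, and the brightest per gene left 5449 genes, named through the R64 annotation.

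One mean per group was fitted to 41 arrays with limma 3.58.1 in R 4.3.3 (25 residual degrees of freedom), without batch A961. Two-sided p-values were adjusted by Benjamini and Hochberg's method across the whole gene table, and a call needed an adjusted p under 0.05 and a log2 difference of at least 1. The fit was tested on simulated data. The 37 °C groups were compared with control A863, the 42 °C groups with control A927, and the 46 °C groups with the mean of both. Members and gene lists were chosen with earlier results of these data known. Named genes were the members, listed pathway genes, marker and ACT1 probe sets, and the 5 genes most like each member. Same-numbered arrays of a group and a 25 °C control deviated together with correlations of -0.29 to 0.32. All were above 0.1 in 1 of 13 comparisons, that between the controls among the 13. Between successive times some correlations were higher, up to 0.58 between 10 and 30 min at 46 °C. The labels name no shared origin, and the fit was unpaired. Alternatives covered arrays, scaling, filter, block, weights, probe sets, threshold and control. No sequence was used here.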

Additional observations from a re-analysis of the deposited data

Results flagged for a closer look

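The changes at 42 °C and at 37 °C differed for all 3 genes at each of 4 times, by the test of the difference itself in limma. The values, as the 42 °C change minus the 37 °C change on the log2 scale, were 3.18, 2.76, 2.80 and 5.33 for HSP42, 1.83, 1.55, 1.67 and 4.47 for BTN2, and 2.35, 1.55, 2.13 and 5.69 for CUR1, at 3, 5, 10 and 40 min. The 25 °C controls differed by -2.66, -1.50 and -1.84 (A927 minus A863), and this difference enters each value.

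The 4 arrays of batch A961 were in no comparison, and on each of them the 3 genes were above both arrays of control A927. The share of all genes above both of these control arrays was not counted. HSP42 was above the mean of that control by 4.69 and 7.30 on the arrays labelled 42 °C 1 min and by 7.30 and 5.12 on those labelled 80 min, in the order of replicates 1 and 2. BTN2 was above it by 2.46 and 4.72 at 1 min and by 4.75 and 2.49 at 80 min. CUR1 was above it by 2.01 and 4.76 at 1 min and by 4.71 and 2.23 at 80 min. In each gene, replicate 2 at 1 min and replicate 1 at 80 min were close to each other, and so were the other pair, whereas the SD between the replicates of a label was 1.54 to 1.94.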

How the results depend on the processing

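Over 17 kinds of alternative, 1512 member values were recomputed and 37 changed their side of the threshold or reversed a called value. Sign changes of values called in neither fit were not counted. No member value changed its call with only the arrays of the compared batches, the intensity trend, arrays centred on their medians, the filter at the floor, array weights, the mean of probe sets or control A863 alone for 46 °C. The replicate block changed 0 of 90 (HSP42 at 37 °C 10 min stayed at 4.52, and 1303 genes were called). With the numbers of control A927 crossed, added after same-numbered arrays had correlated at -0.29 and -0.24, 492 genes were called at 42 °C 3 min and 1398 at 10 min. With all 45 arrays, HSP42 at 37 °C 1 min (1.11, adjusted p = 0.268) and the temperature differences of BTN2 at 3 min (1.83, 0.087) and 5 min (1.55, 0.127) and of CUR1 at 5 min (1.55, 0.209) lost their call. With a common control, chosen after the control levels were seen, the temperature differences at 3, 5 and 10 min became 0.52, 0.10 and 0.15 for HSP42, 0.34, 0.055 and 0.17 for BTN2 and 0.52, -0.29 and 0.29 for CUR1. With the control of the other batch, chosen likewise, BTN2 was called at 37 °C 1 min (2.07) and 40 min (2.00), as was CUR1 (1.85 and 1.54). At 80 min control A927 gave 3.61 for HSP42, -0.33 for BTN2 and -0.18 for CUR1, and the mean of both controls gave 2.29 for HSP42. Quantile normalisation gave 1.02 for HSP42 at 80 min and 1.00 for CUR1 from 10 to 40 min at 42 °C. Leaving out each array in turn gave 0.84 to 1.08 for HSP42 at 80 min, called without replicate 3 of control A863 (1.08) or replicate 1 of 80 min (1.05). With no minimum change, 12 more values passed: BTN2 at 37 °C 1 min (0.57) and 40 min (0.51), CUR1 at 40 min (-0.29), HSP42 at 80 min (0.96), the 3 to 5 min step at 37 °C of HSP42 (0.54), BTN2 (0.27) and CUR1 (0.54), the 5 to 7 min step of CUR1 (0.19), and at 42 °C the 5 to 10 min step of HSP42 (0.25) and the 3 to 5 (-0.27), 5 to 10 (0.63) and 10 to 40 min (0.82) steps of CUR1. The cause was not tested beyond what each alternative alters.

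Counts of called genes moved by over 1.5 times as follows. With no minimum change all 30 comparisons moved, to between 770 and 4742 genes. With all 45 arrays 14 moved, all downward: 37 °C 3 min from 177 to 109, 42 °C 3 min from 492 to 307, the temperature differences at 3, 5 and 10 min from 145 to 39, 183 to 71 and 759 to 449, the 37 °C steps ending at 3, 5, 7, 10, 15 and 80 min from 101 to 49, 165 to 33, 36 to 1, 212 to 27, 160 to 26 and 219 to 138, the 42 °C steps ending at 5 and 10 min from 81 to 10 and 243 to 35, and the 46 °C step from 13 to 6. That last step gave 0 genes with its own batch alone and 4 to 68 with an array left out. The other control gave 217, 494 and 978 genes at 37 °C 1, 3 and 5 min, against 13, 177 and 629, and control A927 gave 727 at 80 min, against 434.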
